A study of Mus musculus with 140 samples.

Results

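The retinoic acid course of mouse CCE embryonic stem (ES) cells was divided at its midpoint, and days 4, 5 and 6 of treatment were compared with days 1, 2 and 3. The members are the 6 RNA samples titled as retinoic acid treatment on those days, of 70 RNA samples in the study, and their 12 arrays, of 140, since each RNA was hybridised to both the MOE430A and the MOE430B array. CCE is an ES line of male 129/Sv origin, grown on gelatin. In the retinoic acid course the medium held 5 µM all-trans retinoic acid and no leukemia inhibitory factor (LIF), and neither transduction nor sorting is named for it. Its day 0 sample, before treatment, is the only untreated sample of the course. The empty vector course used for comparison kept LIF at 1000 units/ml. Its cells carried a lentiviral vector without an shRNA insert and were sorted for GFP each day, counted from a day 0 that lay 48 h after transduction. The Oct4 shRNA and Nanog shRNA courses were handled as the empty vector course, with a vector that targets the named factor. Retinoic acid, the withdrawal of LIF and the absence of a vector and of sorting therefore cannot be told apart in any difference between the retinoic acid course and the others.

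Retinoic acid binds nuclear receptors of the RAR family, which pair with RXR partners on DNA and switch on target genes within hours. Among the first targets are the retinoid-degrading enzyme Cyp26a1, the receptor Rarb itself and the 3′ members of the Hox clusters. In ES cells cultured without LIF the same signal leads to loss of the Oct4 and Nanog network and to the appearance of differentiated cell types over several days, so genes read late in the course can be targets of targets or markers of cell types that have formed by then.

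Each group holds 1 sample per day, so the 3 days of a phase stand in for replicates, and a standard deviation (SD) over them includes any trend within the phase. An exact permutation test of 3 days against 3 cannot give a two-sided p below 0.10. Differences between phases were therefore tested in limma, with the spread around phase means taken from all 9 courses, over 14749 genes. They are given on the log2(signal + pseudocount) scale with a pseudocount of 63.1 on MOE430A and 21.8 on MOE430B, a scale that understates the change of dim genes, as a fold taken from the same scale. Median signals on MOE430A ran from 322.5 to 382.9 on days 1 to 3 and from 335.2 to 377.0 on days 4 to 6. The 3′ to 5′ signal ratio of Gapdh lay between 0.792 and 0.854 on MOE430A over the whole course. On MOE430B it was 0.777 on day 0, 0.823 to 0.872 on days 1 to 3 and 0.839, 0.861 and 0.919 on days 4, 5 and 6. No pair of the 70 samples held the same values: the highest correlation between arrays was 0.9844 on MOE430A.

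Between the phases 1436 genes, 9.74% of those tested, passed an adjusted p of 0.05 (limma, Benjamini-Hochberg). Of these 654 rose (4.43%) and 782 fell (5.3%), and 653 moved at least 2-fold. Which direction was the larger depended on the scale: 722 rose and 1032 fell after quantile normalization, and 822 rose and 728 fell with a pseudocount of the table median. For 1826 genes (12.4%) all of days 4 to 6 lay above all of days 1 to 3, and for 1736 (11.8%) all lay below. In the empty vector course, compared at the same days, 0 genes passed the adjusted threshold and 1096 (7.43%) had an unadjusted p under 0.05. With only the 6 samples in the fit, 21 genes passed. There the spread comes from the retinoic acid days alone and has few degrees of freedom. The main fit shares its spread with courses in which a gene can be nearly level. For Col3a1 the SD over days 1 to 3 was 2061 with retinoic acid and 15.28 in the empty vector course. An SE of the main fit can therefore lie below that of the retinoic acid days alone. Leaving out day 1, day 5 or day 6 gave 676, 918 and 777 genes. Leaving out day 3 gave 2039. All 1436 genes kept their sign in each of these fits. Where a named gene did not pass without 1 of the days, that day is given beside the gene with the value without it.

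The late change was read against the earlier one, days 1 to 3 against the day 0 sample, in which 2230 genes passed (15.1%), 1349 of them higher (9.15%) and 881 lower (5.97%). That comparison rests on 1 untreated sample, and it shares days 1 to 3 with the late comparison, so a high or low early mean enters both with opposite sign. Of the 1436 genes, 965 had not passed in the first comparison and are called late onset here (444 rose and 521 fell). The name means only that the early change did not pass, and it does not date the start of a change. Igf2 is among them, with 400 on day 0 and 15412 on day 3. For 406 of the 965 (42.1%) day 3 lay nearer to the late mean than to that of days 1 and 2. Another 370 genes, 185 in each direction, continued in the direction of their early change, and 101 turned back against it (25 rose and 76 fell late). A further 767 genes had moved at least 2-fold by days 1 to 3 and then settled, the 95% interval of their late change lying within 2-fold in both directions: 513 had risen and 254 had fallen. For 379 genes with such an early change the late interval was too wide to place them.

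Day 3 was not a clean boundary. Of the 654 genes that rose, 582 (89%) had days 4, 5 and 6 all above day 3. Of the 782 that fell, 683 (87.3%) had all of them below day 3. The genes were picked for a difference between the phases, which favours this order, and the share over all genes tested was not counted. The median step from day 3 to the late mean was 0.64 (log2) for the rises, and the median step from days 1 and 2 to day 3 was 0.60. For the falls the same steps were -0.51 and -0.48. Day 3 lay nearer to the late mean than to the mean of days 1 and 2 for 309 of the rises (47.2%) and 372 of the falls (47.6%). For all 76 genes that turned back downwards days 4 to 6 lay below day 3, and day 3 was nearer to the late mean for 20 (26.3%). They too were picked from these values, so the order is a description.

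**Figure D1:**
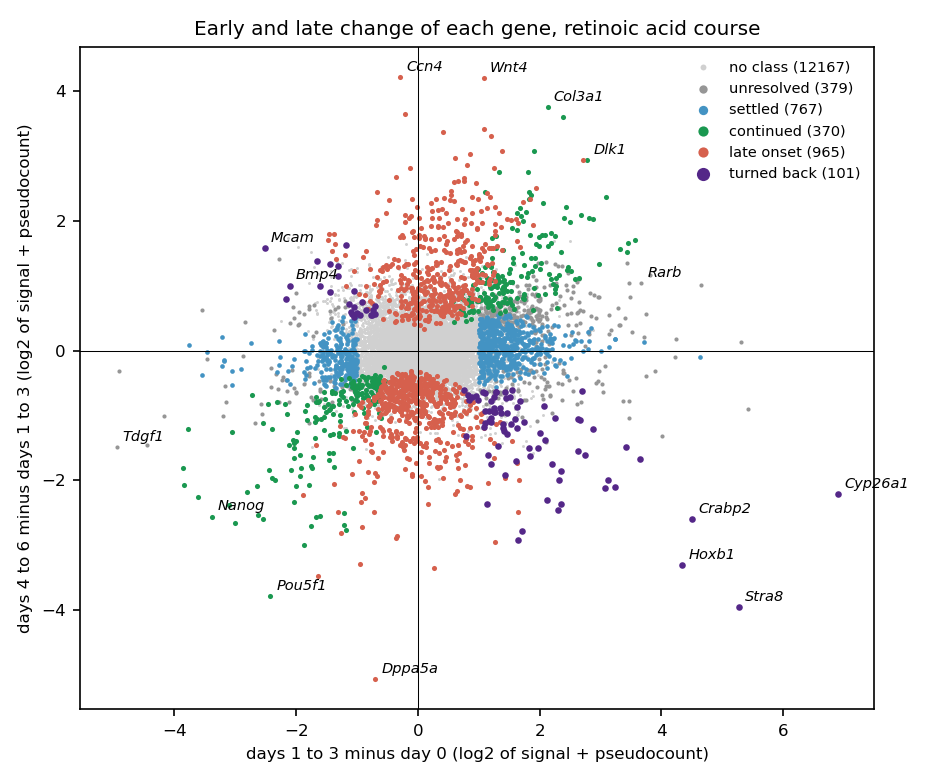
Each point is 1 of the genes tested, with its change from day 0 to days 1 to 3 on the horizontal axis and its change from days 1 to 3 to days 4 to 6 on the vertical axis, both as log2(signal + pseudocount); colours mark the classes, with the number of genes in each. Cyp26a1, Stra8, Hoxb1 and Crabp2 lie far to the right and below 0, Wnt4 and Ccn4 high near the middle, and Tdgf1 far to the left; both axes share days 1 to 3, so no relation between them should be read from the cloud.

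The 4 genes given as markers of the later phase, which code for matrix and growth factors, all rose. Col3a1, the chain of fibrillar type III collagen, had a signal of 86.5, 344.9 and 3779 on days 1, 2 and 3, and of 8675, 7103 and 9140 on days 4, 5 and 6. The phase means were 1403 ± 2061 and 8306 ± 1068 (SD, n = 3 days), a log2 difference of 3.75 ± 0.50 (SE), or 13.5-fold (limma, adjusted p = 4.9e-07). All late days lay above day 3, and the largest step between neighbouring days was that from day 2 to day 3. A second probe set for Col3a1 gave 6.46-fold.

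Postn codes for periostin, a matrix protein of mesenchyme. Its signal was 11.1, 14.8 and 151.2 on the early days and 504.5, 1337 and 1670 on the late days, so that the groups did not overlap and the level on day 0 (17.5) was left only on day 3. It rose by 3.37 ± 0.31 (log2), 10.4-fold (adjusted p = 1.4e-10). Dlk1, a membrane-bound Notch-like protein from an imprinted locus, went from 359.4, 2223 and 8615 to 11852, 16896 and 18623, a rise of 2.94 ± 0.49 (adjusted p = 3.2e-05). Igf2, the imprinted fetal growth factor, stood at 610, 2613 and 15412 on the early days and at 22979, 23064 and 23580 on the late days. Its 3 late values were nearly level while the early ones spanned a wide range, and the rise of 2.94 ± 0.82 (adjusted p = 0.014) did not pass when day 1 was left out (1.85, adjusted p = 0.27) or when day 6 was (2.93, adjusted p = 0.054). The empty vector means moved from 66.4 to 92.9 for Col3a1, and from 240 to 782 for Igf2.

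**Figure D2:**
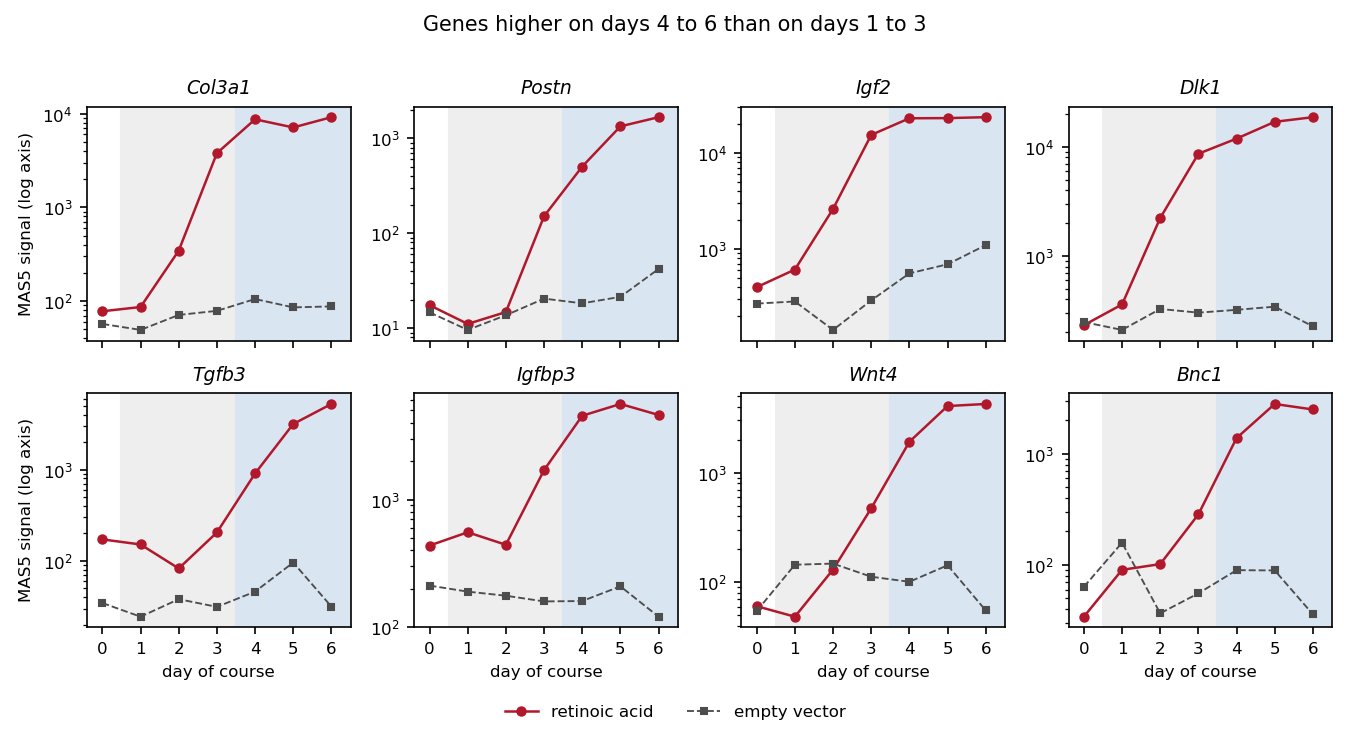
MAS5 signal (log axis) of 8 genes by day of course, with retinoic acid as red circles and a solid line, the empty vector as dark squares and a dashed line, days 1 to 3 shaded grey and days 4 to 6 shaded blue; each point is 1 sample. In the retinoic acid course every late point of each gene lies above every early one, and Tgfb3 climbs from 205 on day 3 to 5233 on day 6 while Igf2 is level after day 4.

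The matrix genes were followed as a list of fibrillar collagens, their processing enzymes and interstitial glycoproteins. Of 27 members tested, 10 rose and 0 fell (4.43% and 5.3% of all genes). The median change was 0.83 (log2) against 0.02 for all genes tested and 0.18 for the same members in the empty vector course. Beside Col3a1 and Postn the rises were the microfibril protein Mfap2 (1.77 ± 0.25, adjusted p = 1.7e-06), the collagen chains Col1a2 (1.69), Col1a1 (1.61), Col6a1 (1.39) and Col5a2 (1.22), the crosslinking enzyme Loxl1 (1.38), the collagen-binding Sparc (1.08) and the procollagen C-proteinase enhancer Pcolce (adjusted p = 0.028). Not every matrix gene moved: fibronectin, Fn1, had 9002, 6746 and 9081 on the early days and 8597, 6700 and 6781 on the late days (-0.16, adjusted p = 0.67), and the small proteoglycan Dcn stood at 0.08 (adjusted p = 0.96). The count fell to 4 without day 1 and to 5 without day 6. Col1a1 did not pass without day 1 (0.98, adjusted p = 0.094), nor did Col1a2 without day 1 (0.81, adjusted p = 0.36) or day 6 (1.44, adjusted p = 0.097). Second probe sets gave 1.62 for Col1a1, which did not pass, and 2.40 for Col1a2, which did. Col5a2 was lost without day 1 or 6 (0.93 and 1.04), Col6a1 without day 1, 5 or 6 (0.98, 1.47 and 0.76), Sparc without day 1, 4, 5 or 6 (0.28 to 1.14), and Pcolce without any 1 day other than day 3 (0.70 to 1.09).

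Ecm1, a secreted glycoprotein of the matrix outside that list, had one of the largest rises of the course. Its signal was 279.6, 1326 and 14136 on the early days and 22716, 22096 and 24342 on the late days. The rise was 3.61 ± 0.52 (limma, adjusted p = 2.8e-06). Of the genes that mark fibroblasts some rose as well. The summed signal of 7 measured markers of 9 listed (Thy1, Pdgfrb, Col1a1, Col1a2, Dcn, Twist2 and Cdh11) ran from 1532 to 8040 on the early days and from 7246 to 12887 on the late days, so the phases overlapped. Of the 7 markers 3 rose (4.43% of all genes): Col1a1 and Col1a2, which are also members of the matrix list, and Cdh11. Cdh11, cadherin 11 of mesenchymal cells, rose by 2.18 ± 0.47 (adjusted p = 0.0013), and Thy1 was at 193.9 to 266 early and 245.8 to 391.6 late (adjusted p = 0.31). Fap and Lum did not pass the filter on low signal. In bulk RNA a larger share of cells of a type and more RNA per cell cannot be told apart, and the part of either in the matrix genes was not tested.

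Basement membrane genes, which code for the sheet under epithelia, gave 3 calls among 14 tested, 2 rises and 1 fall (4.43% and 5.3% of all genes), and 2 of the 3 were lost when single days were left out. Col4a5 went from 148.2, 361.7 and 492.7 to 865.8, 1723 and 1702 (1.96 ± 0.26, adjusted p = 6.6e-07), and Col4a6 rose by 0.99, lost without day 2 (0.76, adjusted p = 0.13) or day 6 (0.70, adjusted p = 0.20). Lama1, the laminin chain of the earliest embryonic basement membranes, peaked at 7096 on day 3 and then dropped to 3109, 800.9 and 251.7. Its phase difference of -1.74 (adjusted p = 0.017) did not pass without day 2, 3, 5 or 6 (-1.59, -1.15, -1.67 and -0.94, with adjusted p = 0.078, 0.15, 0.069 and 0.34). The phases overlapped, as day 1 (1081) lay below day 4, while its slope over days 4 to 6 passed (-1.67 per day, adjusted p = 0.0012). Col4a1 also peaked on day 3, at 12306, and stood at 4459 on day 6. Its late change of 0.19 did not pass.

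The ligands, receptors and modulators of transforming growth factor beta (TGF-beta) and bone morphogenetic protein (BMP) signalling held many rises. These ligands bind receptor kinases that phosphorylate SMAD proteins, and the response includes collagen genes and inhibitors of the pathway itself. Of 29 members tested, 11 rose and 0 fell (4.43% and 5.3% of all genes), with a median of 0.63 (log2). Without day 1 the count was 6.

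Tgfb3 was the ligand with the largest change. It stood at 151.4, 82.7 and 205 on the early days, close to its day 0 signal of 172.1, and at 906.6, 3160 and 5233 on the late days. The rise of 3.65 ± 0.40 (adjusted p = 4.8e-09) was still under way at the end, with a slope of 1.23 per day over days 4 to 6 (adjusted p = 0.041). Tgfb2 had 106.7, 199.4 and 789.5 and then 852.9, 1220 and 1605 (1.90 ± 0.34, adjusted p = 1.2e-04), while Tgfb1 was not placed (0.66, adjusted p = 0.33). Bmp4 had dropped from 1801 on day 0 to 180.3 on day 2 and came back to between 687.7 and 879.1 on the late days. That rise, 2.01-fold (adjusted p = 0.014), overlapped day 3, at 766.6, and was lost without day 1, 2 or 6 (log2 0.95, 0.59 and 0.95).

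Beside the ligands, the latent TGF-beta binding proteins Ltbp1 (3.99-fold) and Ltbp3 (log2 1.52) rose, as did the receptors Tgfbr2 (1.43) and Tgfbr1 (0.89). The decoy receptor Bambi rose by 1.44, the inhibitory Smad6 by 0.88 and the secreted target Tgfbi by 0.97. Without day 1 these 3 stood at 0.84, 0.58 and 0.66 and did not pass, nor did Tgfbi without day 2 (0.80) or Smad6 without day 6 (0.72), and Tgfbr1 passed only with all 6 days or without day 3 (0.70 to 0.99 otherwise). Bmper, a BMP-binding secreted protein, went from 163.7, 224.9 and 773.8 to 2391, 3525 and 4163 (3.31 ± 0.48, adjusted p = 2.1e-06). Of other target genes, Id1 and Ccn2 did not pass. Id1 was at 6522, 4400 and 5146 early and 5130, 5260 and 5402 late. The 95% interval of its difference included 0 (limma, adjusted p = 0.99), and Ccn2 stood at -0.59 (limma, adjusted p = 0.25).

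The insulin-like growth factor (IGF) pathway holds the ligands Igf1 and Igf2, their receptors, and binding proteins that hold the ligands in solution or in the matrix. Of 15 members tested, 8 rose and 1 fell (4.43% and 5.3% of all genes), with a median of 1.15 (log2). Igfbp3 stood at 553.9, 441.8 and 1702 on the early days and at 4540, 5614 and 4605 on the late days (2.67 ± 0.35, adjusted p = 3.2e-07). Igfbp4 rose by 2.50 (adjusted p = 0.00035), Igfbp5 by 2.22 (adjusted p = 0.00011) and Igfbp7 by 1.57, but Igfbp2 was at 6200 to 7485 early and 3511 to 7120 late and did not pass. The adaptor Irs1 (1.79), the scavenging receptor Igf2r (0.83) and Igf1 (1.65, adjusted p = 0.047) rose too, but Igf2r was lost without day 1 (0.53) and Igf1 without day 1, 2, 5 or 6 (0.63, 1.74, 1.55 and 1.48). Igf2bp1, an RNA-binding protein of growing cells, fell by 0.67 (adjusted p = 0.0087), lost without day 2 (-0.57) or day 6 (-0.52). Leaving out a day gave between 5 and 9 rises.

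Imprinted genes with roles in growth did not move as 1 group: of 20 tested, 5 rose and 1 fell (4.43% and 5.3% of all genes). Dlk1, Igf2 and Igf2r are named above, and Ndn rose by 0.86 (adjusted p = 0.0025; 0.62 and not passing without day 1). Cdkn1c, an imprinted inhibitor of cyclin-dependent kinases, kept near its day 0 signal of 1316 on the early days (1770, 1147 and 2300) and then stood at 6373, 8348 and 8677 (2.17 ± 0.51, adjusted p = 0.0033). Phlda2, a brake on placental growth, fell by 2.23 ± 0.50 (adjusted p = 0.0021), from 2822, 409.1 and 300.8 to 180.5, 120.7 and 45.2, and this call was lost without day 1 (-1.29, adjusted p = 0.12). Meg3, transcribed from the same imprinted locus as Dlk1, was at 0.15 (adjusted p = 0.78).

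The largest rise by fold was Ccn4, a secreted matricellular protein known as a Wnt target. It went from 26.7, 30.6 and 202.2, all but the last below day 0 (97.5), to 1154, 3079 and 3715, 18.6-fold (4.22 ± 0.40, adjusted p = 1.6e-10). Wnt4, a Wnt ligand of kidney and gonad development, followed at 18.4-fold, from 48.6, 130.7 and 473 to 1910, 4042 and 4221 (adjusted p = 2.8e-09). Bnc1, a zinc-finger protein of keratinocytes, germ cells and mesothelium, went from 90.3, 101.7 and 285.1 to 1386, 2808 and 2505 (10.7-fold, adjusted p = 1.6e-10). The rule that picked the 12 largest rises required phases without overlap, so the separation of the phases in these 3 genes is not a separate result. The other rises among the 12 largest were Atrnl1 (8.5-fold), the sialomucin Podxl (8.43-fold), the sphingosine phosphate receptor S1pr3 (8.19-fold) and the uroplakin Upk3b (7.87-fold). Other probe sets gave 5.25-fold for Atrnl1, 3.32-fold for Podxl, 6.84-fold and 3.82-fold for S1pr3 and 8.75-fold for Upk3b.

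Of 18 transcription factors of mesenchyme, 5 rose and 1 fell (4.43% and 5.3% of all genes). Nfia rose by 2.61 ± 0.57 (adjusted p = 0.0013), from 24.5, 42.7 and 131.2 to 217.2, 557.1 and 732.9. Snai2, a repressor of epithelial genes, rose by 2.33 and Twist1 by 1.62, while Snai1 (0.24), Zeb1 (0.36) and Zeb2 (0.33) did not pass. The chromatin protein Hmga2 rose by 2.28, from 779.2, 2642 and 4056 to 10774, 8557 and 11389. Nfix rose by 1.78, lost without day 6 (1.23, adjusted p = 0.050), with 2524 on day 6 against 467.4 on day 4. Prrx2 fell by 1.10 after an early rise, lost without day 2, 5 or 6 (-0.82, -1.06 and -1.07).

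Because several genes of the matrix and its signals rose together, the 250 bases before their start sites were searched on both strands in RefSeq's GRCm38.p6 annotation for the letters TATAAA of a TATA box. Of 169 genes named by the rules used here 124 had such a window, and 14 of them (11.3%) held the letters, against 12.4% of 32851 windows of all genes, a share near the background. The 4 below are shown for the rises described above, over the last 60 bases before the start, 5′ to 3′ on the gene's strand, with the matched letters in capitals. In each the match ended 20 to 25 bases before the start site. They lie on chr3:54361047-54361106 (plus strand), chr1:186705990-186706049 (minus), chr3:95739570-95739629 (minus) and chr11:99041184-99041243 (plus), in this order. A match describes the letters and is not a measured site.
Postn: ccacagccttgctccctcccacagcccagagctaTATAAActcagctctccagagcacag
Tgfb2: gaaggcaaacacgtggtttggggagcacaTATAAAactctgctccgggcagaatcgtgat
Ecm1: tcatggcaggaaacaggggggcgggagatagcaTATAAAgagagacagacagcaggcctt
Igfbp4: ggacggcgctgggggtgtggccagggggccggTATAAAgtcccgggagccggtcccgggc

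Genes of the pluripotent state made up the clearest group of falls. Of 36 tested, 0 rose and 23 fell (4.43% and 5.3% of all genes), with a median of -1.65 (log2). The fall count ran from 20 to 28 when each day was left out. The empty vector means of Pou5f1 were 15296 on days 1 to 3 and 16154 on days 4 to 6. The summed signal of 5 ES markers (Pou5f1, Nanog, Sox2, Esrrb and Zfp42) was 37168 on day 0, ran from 15890 down to 2080 on the early days and lay between 876.9 and 1366 on the late days.

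Dppa5a, an RNA-binding protein of ES cells, fell furthest in the whole comparison. Its signal was 36785, 20883 and 6985 on the early days, the first above day 0 (28635), and 1692, 312.6 and 157.6 on the late days, a log2 change of -5.06 ± 0.38, or 33.4-fold (adjusted p = 1.4e-12). It was still dropping at the end, 2.82-fold per day over days 4 to 6 (adjusted p = 1.2e-06), and day 3 was 44.3 times day 6. Pou5f1, which codes for Oct4, went from 6893, 1593 and 750.6 to 208.2, 38.6 and 66.2 (-3.79 ± 0.37, adjusted p = 5.0e-10). Sall4, a zinc-finger partner of Oct4, went from 6296, 3741 and 3006 to 1098, 419.7 and 358.2 (-2.77 ± 0.22, adjusted p = 1.8e-12). For these 3 genes every late day lay below every early day, which the rule for the largest falls required of Dppa5a and Pou5f1.

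Other factors fell by smaller amounts: Klf2 (-2.66), the RNA-binding Lin28a (-2.69), the Nodal inhibitor Lefty2 (-2.71), Gbx2 (-2.49), the methyltransferase partner Dnmt3l (-2.37), Nodal (-2.27), Tfcp2l1 (-2.09), Zfp42 (-2.07) and Sox2 (-1.81). Dppa2 (-3.29) and Lefty1 (-2.86) were among the 12 largest falls of the course, with Upp1 (-3.47), Calcoco2 (-3.36), the testis RNA-binding protein Rbmxl2 (-2.99), the chaperone Clgn (-2.94) and the tetraspanin Cd9. Cd9 held 4003, 4830 and 2817 on the early days against 4868 on day 0, and then dropped to 1077, 366.4 and 222.4 (-2.89 ± 0.25, adjusted p = 1.5e-11).

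Several core genes had already reached the floor. Nanog passed (-2.56, adjusted p = 1.7e-05), but its values of 2523, 578.3 and 89.3 on days 1, 2 and 3 and 17.3, 43.6 and 81.5 on days 4, 5 and 6 show that day 3 lay with the late days. Tdgf1, the Nodal co-receptor, had gone from 8264 on day 0 to 49.1 on day 2 and lay between 12.9 and 47.5 on the late days (adjusted p = 0.058). Esrrb, Tcl1, Nr5a2 and Prdm14 had settled at their low early level. Socs3, a feedback target of LIF signalling, went from 5251 on day 0 to between 293.2 and 1489 on the early days and 796.4 to 1232 on the late days, with no late change that passed (0.45, adjusted p = 0.45).

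**Figure D3:**
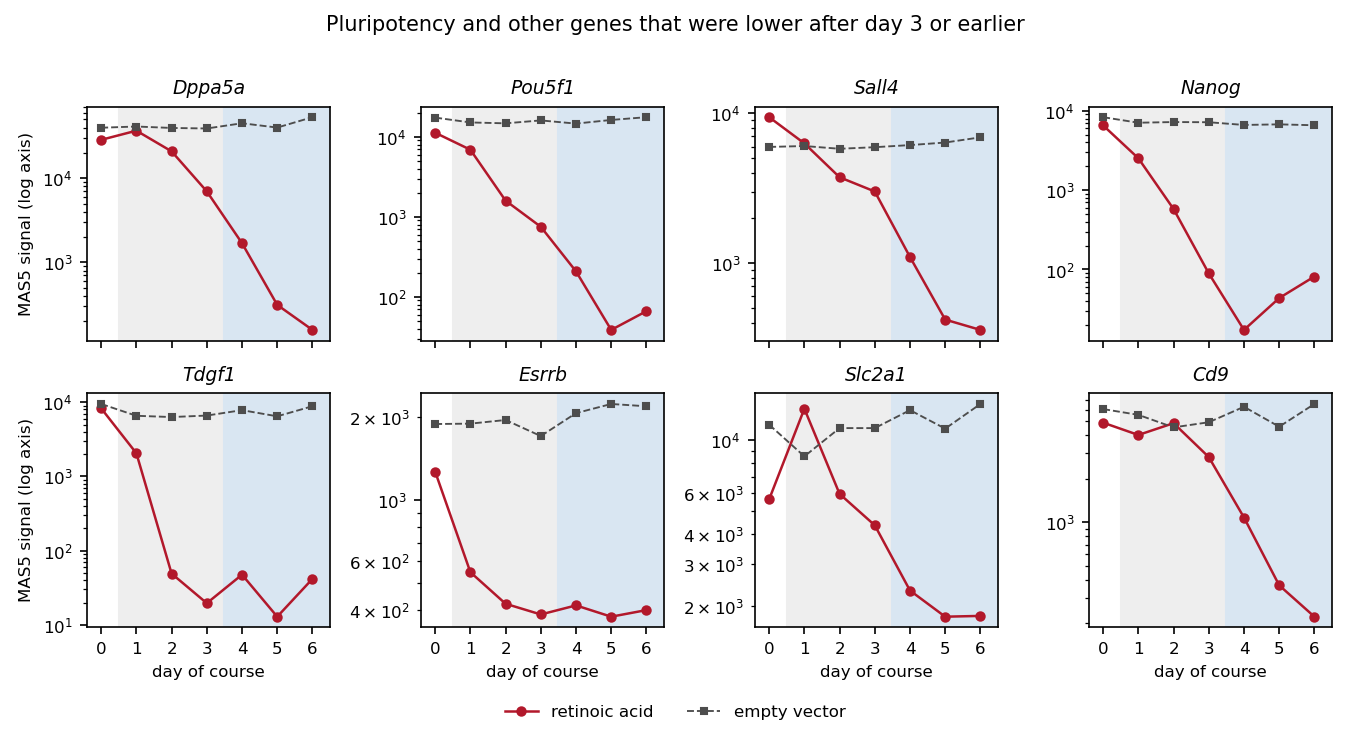
MAS5 signal (log axis) of 8 genes by day, with retinoic acid as red circles and a solid line, the empty vector as dark squares and a dashed line, days 1 to 3 shaded grey and days 4 to 6 shaded blue; each point is 1 sample. Dppa5a and Cd9 stay near their day 0 level until day 2 and drop through day 6, whereas Nanog and Tdgf1 are near their lowest by day 3.

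Several retinoid genes rose early and then turned back while treatment went on. Of 18 members tested 11 were higher and 1 lower on days 1 to 3 than on day 0 (9.15% and 5.97% of all genes). In the late comparison 1 rose and 3 fell (4.43% and 5.3% of all genes), with a median of 0.06 (log2). Cyp26a1, the enzyme that degrades retinoic acid, went from 58.5 on day 0 to 15848, 15507 and 12239 on the early days (6.90 above day 0 on the log2 scale) and then to 6850, 2775 and 1513. It fell by 2.21 ± 0.43, 4.62-fold (adjusted p = 3.3e-04), without overlap, and day 6 was still far above day 0. Crabp2, which carries retinoic acid to its receptor, peaked at 11099 on day 2 between 3044 and 2945, and was at 1184, 690.8 and 433.6 late (-2.60 ± 0.45, adjusted p = 5.7e-05). Stra8, a germ cell gene named for its response to retinoic acid, held 12447, 12758 and 5857 on the early days, from 190.9 on day 0, and 1203, 452.6 and 323.7 on the late days (15.6-fold, adjusted p = 3.8e-09).

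Rarb and Cyp26b1 stayed above their day 0 level, with late changes that did not pass. Rarb, the inducible receptor, had 683.1, 3202 and 5324 on the early days and 3918, 4786 and 5826 on the late days. These overlap, and the difference of 1.04 (95% interval 0.30 to 1.77) did not pass over all genes (adjusted p = 0.062). Cyp26b1, the second degrading enzyme, was at 1218, 4726 and 5091 and then at 2815, 3545 and 3920, with a difference of 0.14 and a 95% interval from -0.77 to 1.04. Of the 18 retinoid genes 3 had settled, among them Stra6, the retinol channel, and Rarg, at a level below day 0, and 5 had a late interval too wide to place them. Aldh1a2, which makes retinoic acid from retinal, was the 1 member that rose: from 100.9, 86.8 and 1313 to 1985, 1939 and 1257 (2.44 ± 0.40, adjusted p = 2.7e-05), with day 6 just under day 3.

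Cyp26a1 and Rarb carry the retinoic acid response element in its classical form, a direct repeat of a hexamer spaced by 5 bases, close to their starts. On both strands of the 250 bases before the start this repeat was found in 29 of 32851 windows (0.0883%), in 28 genes of which 9 were tested. Among the 124 named genes with a window only Cyp26a1 held it (Rarb was not in that set), and the form spaced by 2 bases, in 0.174% of windows, was in 0 of them. Of the 9 tested genes with the repeat spaced by 5, only Cyp26a1 and Rarb passed as higher on days 1 to 3 than on day 0. Syndig1 passed as lower (-1.55, limma, adjusted p = 0.028), and the rest did not pass. The windows of Cyp26a1 and Rarb are shown because these genes share the repeat but part after day 3. Cyp26a1 fell while the phases of Rarb overlapped, and the difference between the genes was not tested. The 2 windows were chosen for this and do not stand for the other genes with the repeat. They are given 5′ to 3′ on the gene's strand from RefSeq's GRCm38.p6, with the hexamers in capitals, at chr19:37697558-37697807 (plus) and chr14:16575477-16575726 (minus). The repeat ends 15 bases before the start of Cyp26a1, read on the other strand, and 36 bases before that of Rarb.
Cyp26a1: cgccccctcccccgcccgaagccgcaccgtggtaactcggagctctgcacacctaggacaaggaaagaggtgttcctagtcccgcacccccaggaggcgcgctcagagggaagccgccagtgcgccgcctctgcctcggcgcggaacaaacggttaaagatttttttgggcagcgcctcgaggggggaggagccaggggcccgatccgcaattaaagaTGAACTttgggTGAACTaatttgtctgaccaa
Rarb: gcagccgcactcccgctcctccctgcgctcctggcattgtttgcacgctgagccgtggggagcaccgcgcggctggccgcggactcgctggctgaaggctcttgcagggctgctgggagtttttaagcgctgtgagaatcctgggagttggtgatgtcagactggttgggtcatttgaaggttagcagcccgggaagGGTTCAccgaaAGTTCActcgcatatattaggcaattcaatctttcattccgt

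**Figure D4:**
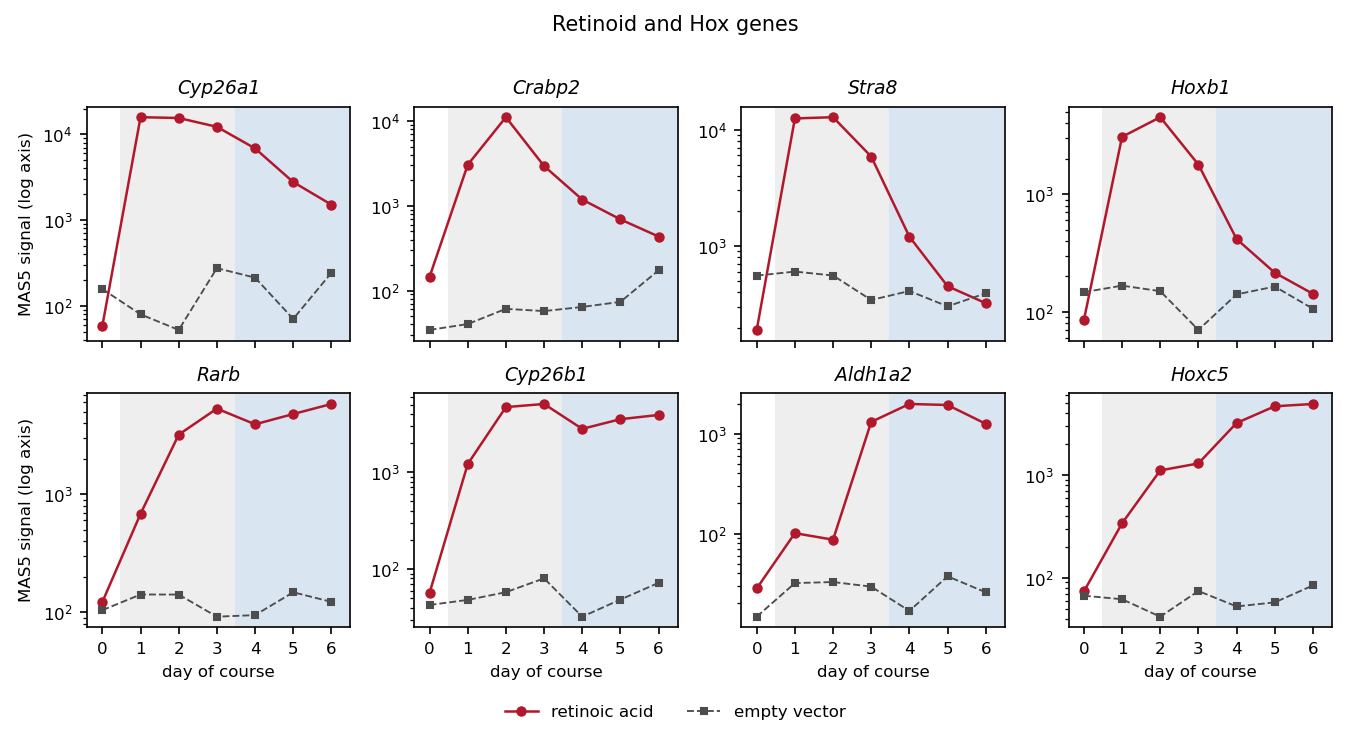
MAS5 signal (log axis) of 8 retinoid and Hox genes by day, with retinoic acid as red circles and a solid line, the empty vector as dark squares and a dashed line, days 1 to 3 shaded grey and days 4 to 6 shaded blue; each point is 1 sample. Cyp26a1, Crabp2, Stra8 and Hoxb1 fall on the late days toward their day 0 level, Rarb and Cyp26b1 stay up, and Hoxc5 climbs to 4896 on day 6.

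Hox genes, which set position along the body axis and lie in clusters whose 3′ members answer retinoic acid first, held both patterns, though only 1 gene turned back. Of 27 tested, 15 were higher on days 1 to 3 than on day 0 (9.15% of all genes). Late, 4 rose and 1 fell (4.43% and 5.3% of all genes). The fall was Hoxb1, a 3′ gene with 3076, 4520 and 1788 on the early days, up from 84.9 on day 0, and 416.2, 215.1 and 142.3 on the late days (-3.31 ± 0.31, adjusted p = 1.4e-10). The 4 rises were all of the Hoxc cluster. Hoxc5 went from 338.2, 1106 and 1293 to 3197, 4650 and 4896 (2.37 ± 0.39, adjusted p = 2.2e-05), and its 3 probe sets gave values between 2.33 and 2.42.

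Hoxc4 rose by 1.71, from 236.3, 1455 and 1429 to 1947, 3020 and 3754, Hoxc6 by 1.24 and Hoxc8 by 2.09. The rise of Hoxc8 was lost without day 1 (0.97, adjusted p = 0.19), when its signal was 148.1 against 1839 and 2357 on the next days. Hoxc9 (0.66) and Hoxc10 (0.56) did not pass. Of the 27 genes 4 had settled, Hoxa2, Hoxa5, Hoxd1 and Hoxb13. For 7 the interval was too wide to place them: Hoxa4, Hoxb2, Hoxb3, Hoxb4, Hoxb5, Hoxb6 and Hoxb9. Neighbouring Hoxc genes can share transcripts, and the probe sets do not tell transcripts of separate promoters apart.

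Of 12 MHC class I genes and genes of the machinery that loads their peptides, 0 rose and 4 fell (4.43% and 5.3% of all genes). These 4 had peaked on day 2. H2-D1, a class I heavy chain, peaked at 2779 on day 2 between 1381 and 1246, and was at 316.1, 253.7 and 190.9 on the late days, all below the day 0 signal of 497.7 (-2.49 ± 0.45, adjusted p = 1.3e-04). The immunoproteasome subunit Psmb9 went from 280.6, 370.4 and 165.1 to 67.8, 57.2 and 31 (-1.51, adjusted p = 0.00027). H2-K1 (-1.38) and the loading factor Tapbp (-0.96) also fell. Another probe set of H2-K1 stood at -0.29 and did not pass, while its remaining ones passed. H2-K1 did not pass without day 2 (-0.86, adjusted p = 0.17) or day 5 (-1.19, adjusted p = 0.074). Tapbp did not pass without day 2, 5 or 6 (-0.63, -0.90 and -0.88, with adjusted p = 0.27, 0.11 and 0.13). The light chain B2m did not follow (0.70, adjusted p = 0.35).

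Sugar uptake and glycolysis genes fell where they moved, with 4 falls and 0 rises among 19 (5.3% and 4.43% of all genes). The glucose transporter Slc2a1 went from 13526, 5925 and 4370 to 2322, 1802 and 1816 (-1.81 ± 0.21, adjusted p = 3.7e-08), and Slc2a3 from 19322, 15201 and 9237 to 6584, 4044 and 3879 (-1.56 ± 0.18, adjusted p = 3.6e-08). The late days lay below all early days in both. Pfkp (-1.50) and Ldha (-0.89) fell as well, each lost without day 1 (-0.99, adjusted p = 0.14, and -0.51, adjusted p = 0.28). Pgk1 (-0.47) and Pkm (-0.43) did not pass.

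Among 29 genes of mitosis and replication 8 fell, each by less than 2-fold, and 0 rose (5.3% and 4.43% of all genes). The median was -0.38 (log2), and between 4 and 14 fell when a day was left out. The falls included cyclin B2, Ccnb2 (-0.81), the anaphase activator Cdc20 (-0.74), cyclin A2, Ccna2 (-0.58), the survivin gene Birc5 (-0.58) and Cdk1 (-0.41, lost without day 1 at -0.30 or day 6 at -0.34). A second probe set of Ccna2 gave -0.31 and did not pass. Pcna was at 19987, 15071 and 11756 and then 14216, 11509 and 11422, which overlap. Among 18 inhibitors and G1 cyclins 5 rose and 0 fell (4.43% and 5.3% of all genes). The rises were Cdkn1c as above, Cdkn2a (1.21 ± 0.19, limma, adjusted p = 1.7e-05), Cdkn1a (1.06), Cdkn2b (0.92) and cyclin D1, Ccnd1 (0.92). Ccnd1 was lost without day 2 (0.57, adjusted p = 0.082) and Cdkn2b without any 1 day other than day 3 (adjusted p from 0.055 to 0.50). Cdkn2a went from 337.1, 440.7 and 774.5 to 1140, 1232 and 1283. Proliferation was not measured.

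Markers of lineages were mixed within each list. Of 26 genes of extraembryonic endoderm, 2 rose and 4 fell (4.43% and 5.3% of all genes). The factors Gata4 (1.08) and Gata6 (1.12) rose, the latter lost without day 1 (0.61, adjusted p = 0.20) or day 6 (0.90, adjusted p = 0.072), and Gata4 without day 1 (0.69, adjusted p = 0.11). Apoe fell by 2.51 (adjusted p = 6.9e-08), Emb by 1.43 and Sox17 by 0.89, the last lost without day 2, 3, 5 or 6 (-0.72, -0.65, -0.91 and -0.64). Cubn, the endocytic receptor of visceral endoderm, traced a pulse of 286, 1473 and 3395 and then 1231, 309.6 and 113. Its phase difference of -1.48 (adjusted p = 0.047) did not pass without day 2, 3, 5 or 6 (-1.32, -0.74, -1.36 and -0.82, with adjusted p = 0.16, 0.38, 0.16 and 0.46). The summed signal of 5 measured endoderm markers of 6 listed was 1730 to 5758 early and 5126 to 8857 late.

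Of 20 genes of neuroectoderm and neurons, 3 rose and 4 fell (4.43% and 5.3% of all genes). The rises were Sox11 (1.78), Isl1 (1.47) and Ncam1 (1.38), and the falls Sox1 (-1.74), Gap43 (-1.42), Ina (-1.38) and Stmn2 (-1.25). Sox11 was lost without day 1, 5 or 6 (1.12, 1.70 and 1.72, with adjusted p = 0.30, 0.072 and 0.075) and Sox1 without day 1, 2, 4 or 6 (-1.07, -1.46, -1.48 and -1.48, with adjusted p = 0.35, 0.13, 0.10 and 0.15). Ncam1 was lost without day 1 (0.81), Gap43 without day 2 (-1.10) and Stmn2 without day 1, 2, 4 or 5 (-0.42, -1.31, -0.99 and -1.24). The 5 neuron markers summed to 1174 to 3928 early and 963.2 to 1494 late. Of 18 mesoderm genes 3 rose and 2 fell (4.43% and 5.3% of all genes). They were Hand2 (2.02), Foxc2 (1.66) and the receptor Kdr (1.29), and Tcf15 (-1.34) and Eomes (-0.84). Kdr went from 184.8, 499.1 and 447.4 to 650.7, 966.4 and 1364 (adjusted p = 0.00015). Hand2 did not pass without day 1, 5 or 6 (1.39, 1.96 and 1.97, with adjusted p = 0.23, 0.057 and 0.062). Foxc2 did not pass without day 1 or 6 (0.71 and 1.61, with adjusted p = 0.40 and 0.052), nor Tcf15 without day 1 (-0.46, adjusted p = 0.52).

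Blood, endothelial and muscle markers did not rise as sets. The 4 measured markers of blood and endothelium (of 8 listed) summed to 570.1 to 962.3 early and 496.2 to 754.2 late, below day 0 (1024), and Tal1, Hbb-bh1, Hba-x and Ptprc did not pass the filter. The 4 measured cardiomyocyte markers of 5 summed to 1517 to 1920 early and 1099 to 1224 late, where the atrial light chain Myl7 fell (-1.07, adjusted p = 0.0018). Among 23 contractile genes 8.7% passed, a share near the 9.74% of all genes. The 1 rise was the smooth muscle actin Actg2, from 99.7, 173.9 and 522.6 to 997.8, 1035 and 1002 (1.93 ± 0.29, adjusted p = 5.0e-06), and the 1 fall was Tagln2, by 0.76. Acta2 peaked at 22102 on day 3 and stood at 17532, 11731 and 10738 late. Trophectoderm genes gave 2 rises and 3 falls among 25 (4.43% and 5.3% of all genes). The keratins Krt8 and Krt18 peaked on day 3 (10752 and 12948) and had intervals of the late change that include 0.

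**Figure D5:**
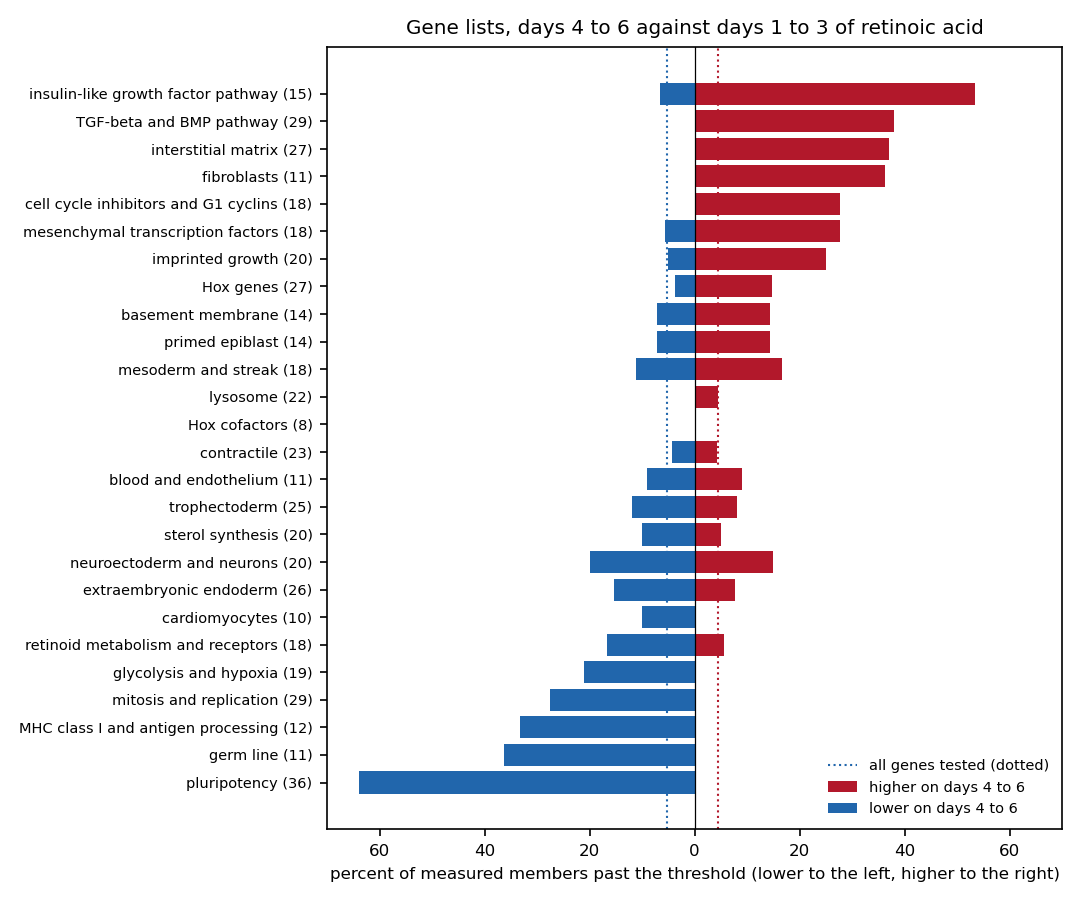
Share of measured members of each of 26 gene lists (number tested in brackets) that passed the threshold in days 4 to 6 against days 1 to 3, with rises in red to the right and falls in blue to the left, in percent; dotted lines mark the share among all 14749 genes tested. Pluripotency extends furthest to the left, with 23 of 36 members lower, and the IGF pathway furthest to the right, with 8 of 15 higher.

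The genes called settled had phase means within 2-fold of each other, which does not exclude movement within a phase. Mrc2, a collagen-uptake receptor, jumped from 20.9 on day 0 to 1111, 1002 and 1015 and stood at 1113, 1079 and 1263 late. The meiotic cohesin Rec8 had gone from 38.9 to 1383, 3524 and 3102 and then held 2420, 2350 and 2147. Downwards, the kinase Sgk1 went from 5851 to 743, 250.5 and 264, and was at 262.2, 425.7 and 563.8 late. Otx2, a factor of primed epiblast and forebrain, went from 699.1 to 31.2 or below on each later day. For these 4 genes the 95% intervals of the late change lie within 2-fold. Sgk1 was still 2.14 times higher on day 6 than on day 3. At the low signal of Otx2 the scale understates any change.

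Of the 25 genes that turned back upwards, Mcam, a cell adhesion molecule, went from 612.1 on day 0 to 161.4, 31.9 and 14 and back to 221.2, 366.8 and 300.7 (1.59, adjusted p = 0.013), not passing if day 2, 3, 5 or 6 was left out (1.43, 1.28, 1.45 and 1.57, with adjusted p = 0.068, 0.070, 0.072 and 0.053). The Wnt effector Lef1 went from 333 to 81.5, 150.1 and 192.7 and then to 347.5, 505.3 and 566.3 (1.64 ± 0.30, adjusted p = 1.2e-04), with no overlap. Aplp1 (1.34) and Ubxn10 (1.30) did likewise, though a second probe set of Ubxn10 stood at -0.19 and did not pass. Downwards, the kinase Mapk13 (-2.91), the phosphatase Dusp9 (-2.77) and Ap3b2 (-2.45) joined Stra8, Hoxb1, Crabp2 and Cyp26a1. Mapk13 was at 522.4, 770.5 and 637.3 on the early days and at 48.5, 20.5 and 22.4 on the late days, below its day 0 signal of 161.3.

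Within the late phase few genes still moved in a way the fit could show. A slope over days 4, 5 and 6, tested in limma, passed for 48 genes (0.325%), 23 upwards (0.156%) and 25 downwards (0.17%). The balance of directions depended on the scale, with 21 upwards and 50 downwards after quantile normalization, and 60 and 24 with a pseudocount of the table median. On the main scale 1001 genes (6.79%) had an unadjusted p under 0.05. The falls were led by Lama1, Dppa5a, Cubn (-1.44 per day) and Fgf5. Fgf5, a growth factor of primed epiblast, was at 23.8 or below on the early days, at 218.7 on day 4, 89.9 on day 5 and 22.4 on day 6. Its phase rise of 1.54 (adjusted p = 0.011) did not pass when day 4 was left out (0.94, adjusted p = 0.17) or day 1 was (1.34, adjusted p = 0.10). Upwards, Esr1, the estrogen receptor alpha gene, was at 27.8, 47 and 40.3 early and at 33.2, 250.1 and 537.5 late (1.67 per day, adjusted p = 0.028), and Ppp1r3b, a glycogen-targeting subunit, went from 107.1 to 361.6 and 914.2 (1.43 per day). Cabp7 was at 38.9, 38.5 and 456.3 on the late days, so its slope rests on day 6.

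The late change was then set against the change over the same days in the courses that share the array platform. The 3 comparisons share the retinoic acid samples, so they do not count as separate support. The difference from the empty vector change passed for 568 genes (3.85%), 177 higher (1.2%) and 391 lower (2.65%), or 289 and 384 with a pseudocount of the table median. The median over all genes of the empty vector change itself was 0.099 (log2). The differences from the Oct4 shRNA and Nanog shRNA changes passed for 473 (3.21%) and 741 (5.02%). Without retinoic acid day 1, 5 or 6 the count beyond the empty vector was 335, 371 and 330, and without day 3 it was 1059.

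Among the markers Col3a1 rose more than in the empty vector course by 3.48 ± 0.71 (adjusted p = 0.0017), Postn by 3.16 (adjusted p = 3.9e-06) and Dlk1 by 2.87 (adjusted p = 0.0091). For Igf2 the difference of 1.47 ± 1.16 (SE) did not pass (limma, adjusted p = 0.60). The empty vector change of Igf2 was 1.47 and did not pass either (limma, adjusted p = 0.73). In the Oct4 shRNA course Igf2 had an early mean of 12398 and a late mean of 20867, and its own changes were 0.86 there and 2.64 in the Nanog shRNA course. Col3a1 changed by 0.25 and 0.27 in those courses, Postn by 0.06 and 0.10, Tgfb3 by 0.36 and 0.29, and Wnt4 by 0.41 and 0.27, each well under its value with retinoic acid (adjusted p of the differences at most 0.0016). Dlk1 changed by 0.83 with Oct4 shRNA and by -0.18 with Nanog shRNA. Its difference passed from the Nanog shRNA change (3.12, limma, adjusted p = 0.0036). From the Oct4 shRNA change it did not (2.11, limma, adjusted p = 0.084). For Cdkn1c neither difference passed. It was -0.70 from the Oct4 shRNA change (limma, adjusted p = 0.76) and -1.10 from the Nanog shRNA change (limma, adjusted p = 0.45).

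Among the falls, the change of Dppa5a was 0.11 with Oct4 shRNA and -0.02 with Nanog shRNA against -5.06 with retinoic acid. Pou5f1 changed by 0.70 in the Oct4 shRNA course, where its mean went from 1695 to 2920, and by -0.57 with Nanog shRNA. The sort for GFP in those courses selects cells that kept the vector and has no counterpart in the retinoic acid course. The largest differences from the empty vector change were Wnt4 (4.63), Ccn4 (4.27), Col3a1, Bnc1 (3.48), Tgm5 (3.40) and Tgfb3 (3.32) upwards, and Dppa5a (-5.26), Mapk13 (-4.71), Pou5f1 (-3.86), Ap3b2 (-3.74), Upp1 (-3.73) and Stra8 (-3.60) downwards.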

How the data were processed

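Total RNA of each sample was labelled with biotin and hybridised to Affymetrix MOE430A and MOE430B arrays, and the deposited signal values, intensities on a linear scale, were computed by the authors with MAS5 per the submitters' processing notes (version not given in the sources used here). On each of the arrays a trimmed mean of the 100 control probe sets that both array types share is 2500, so the values had been scaled by these controls. Signals were not rescaled here. Of 45265 probe sets, 128 are controls, 35041 name 1 gene in the platform annotation, 936 several and 9160 none. Only those naming 1 gene were used. The probe set past the filter with the highest mean percentile rank within its array type stood for its gene. The filter kept probe sets above the table median (283.3 on A, 89.2 on B) on at least 3 of 70 arrays. A gene that is high only on the 3 days of 1 phase can enter the test through that phase. Over days 0 to 6 of the retinoic acid and empty vector courses, Postn, Ccn4 and Tgfb3 exceeded the median only on the late retinoic acid days. Without the filter 673 genes rose and 752 fell. Values were log2(signal + pseudocount), the pseudocount being the 20th percentile of the table.

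A mean per phase and course was fitted over all 9 courses with limma 3.58.1 in R 4.3.3 (intensity trend, Benjamini-Hochberg over 14749 genes). P-values measure the spread of single days around phase means over all 9 courses, which may be technical or a trend. They do not measure the spread of the retinoic acid days alone. The members and the gene lists were chosen with earlier results of these data known, so list counts are descriptions. Genes were named by rule: the 4 markers; the 12 largest rises and falls without overlap; up to 4 passed and 2 not passed members per list; the 6 largest turned back, settled and beyond empty vector per direction; and the 4 largest slopes. Further list members are named for completeness. In 26 lists 478 genes were tested, 77 were under the filter and 41 had no probe set of their own. Of 149 other probe sets of named genes 34 gave a fold over 1.5 times apart and 0 passed in the opposite direction. Some did not pass although the chosen probe set did. Among these was 1 each of H2-D1 (log2 -0.94), Emb (-0.25), Pfkp (-0.18), Hmga2 (0.08) and Tgfb2 (1.17). The remaining other probe sets of these genes passed. On simulated data for the late against early comparison, with 14749 genes, the fit called 57% of genes changed by 1 and 86% of genes changed by 2 on the log2 scale, with 11 false calls. The simulated days had independent noise, 1 spread per gene over all courses and no trend within a phase. These rates may therefore not hold for the retinoic acid days. The precision is limited by the number of arrays. Alternatives tried were other pseudocounts, no filter, quantile normalization, means of probe sets, no trend, a spline over days, fewer courses and each day left out.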

Additional observations from a re-analysis of the deposited data

Results flagged for a closer look

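The late change differed between the retinoic acid course and another course, by a test of the difference itself (limma, Benjamini-Hochberg over all genes), for 568 genes against the empty vector, 473 against Oct4 shRNA and 741 against Nanog shRNA. The 3 share the retinoic acid samples. The genes with the largest differences from the empty vector change, in log2 units, were higher by 4.63 for Wnt4, 4.27 for Ccn4, 3.48 for Col3a1, 3.48 for Bnc1, 3.40 for Tgm5 and 3.32 for Tgfb3, and lower for Dppa5a (-5.26), Mapk13 (-4.71), Pou5f1 (-3.86), Ap3b2 (-3.74), Upp1 (-3.73) and Stra8 (-3.60). In Mapk13 the empty vector mean rose, from 148.5 to 658.1, while it fell with retinoic acid. Tgm5, a transglutaminase, had 55.1, 47 and 58 on days 1 to 3 of retinoic acid and 215.5, 549.4 and 806.6 on days 4 to 6. Retinoic acid, LIF withdrawal and the absence of vector and sorting cannot be told apart in these differences.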

How the results depend on the processing

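The late comparison has 1 sample per day, and its 1436 calls depend on how the spread is taken: a spline with 3 degrees of freedom gave 2243 and only the 6 retinoic acid samples 21, while leaving out each day gave 676 to 2039. The main calls kept their sign in every alternative run except the mean of all probe sets, where 1432 of 1436 did. Beyond the empty vector, 568 became 1128 with the spline, 163 with only the retinoic acid and empty vector samples, and 330 to 1059 with a day left out; with day as a replicate block it was 783, although equal day numbers do not pair cultures, as the courses count days from different events. Beyond Oct4 shRNA and Nanog shRNA the spline gave 1096 and 1642, where the main fit had 473 and 741. The empty vector change gave 0 calls, 1 without the filter and 9 with the spline. Days 1 to 3 against day 0 gave 1425 to 3029 with a day left out, for 2230, and quantile normalization turned its split of 1349 higher and 881 lower into 992 and 1106 as the median over all genes moved from 0.123 to -0.049. The late slope gave 84 calls with a pseudocount of the table median, for 48. Of 105 named genes that passed, 0 reversed, 33 lost the call without at least 1 day (58 of 149 over all list members and added genes that passed), 9 were lost with a pseudocount of 1 and 9 passed with only the 6 samples.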

Other observations

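Some further genes were looked at after their values had been seen, so their counts support nothing. Of 16 genes known from mesothelium, epicardium and coelomic epithelium 15 were tested, and 12 rose and 0 fell (4.43% and 5.3% of all genes). Wnt4, Bnc1, Podxl, Upk3b, Gata4 and Aldh1a2, already named above, are among them. Wt1, a zinc-finger factor of these epithelia and of kidney and gonad, had 260.2, 880.9 and 1117 on days 1 to 3 and 2151, 3332 and 4077 on days 4 to 6 (2.14 on the log2 scale). The T-box factor Tbx18 rose by 2.30, Upk1b by 2.33, Sulf1 by 2.22, Lrrn4 by 2.20 and the fibulin Efemp1 by 2.12. Krt19, Tcf21 and Muc16 did not pass, and Msln was not tested. The nuclear receptors Nr2f1 (2.03, lost without day 1 at 0.95) and Nr2f2 (1.90), both known to answer retinoic acid, rose.

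The metallothioneins Mt1 and Mt2, which bind zinc and other metals, fell by 2.01 and 2.72. Of 12 genes inducible by interferon 8 were tested, and 1 rose and 2 fell (4.43% and 5.3% of all genes). The rise was the GTPase Iigp1 (1.22). The falls were Irf1 (lost without day 1, 2, 5 or 6, at -0.53 to -0.71) and Oas1a (lost without day 2 at -0.62 or day 5 at -0.41).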
